A study of Mus musculus with 12 samples.

Results

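Myogenic induction was followed in C2C12 cells, a mouse myoblast line, that had been transfected with siRNA against Zfp143. The comparison takes the 6 Zfp143 siRNA libraries of the series, 3 harvested at day 5 in differentiation medium and 3 harvested uninduced, out of 12 libraries in all. The members were chosen by the libraries' labels, not by measured levels, although earlier results of these data were known. All groups were C2C12 cells transfected with the reagent Lipofectamine 3000, with either the Zfp143 siRNA or a control siRNA that targets no gene. Uninduced cells were in growth medium with 10% fetal bovine serum and were collected 24 hours after transfection. Induced cells were moved at 24 hours to medium with 1% horse serum, renewed daily, and were collected at day 5. The other 6 libraries, 3 uninduced and 3 induced with the control siRNA, serve as the background against which the Zfp143 siRNA response is read. The induced libraries differ from the uninduced ones in serum, in days of culture and in time since transfection, and these cannot be told apart. The labels give 1 cell line and the same batch, 1, for all 12 libraries, and nothing in them says that the replicates came from separate transfections, so p-values measure the spread between these libraries, which may be technical.

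Zfp143 encodes a zinc finger transcription factor, ZNF143, that binds many promoters and has been placed at chromatin loop anchors together with CTCF and cohesin. In C2C12 cells withdrawal of growth factors starts a known program. The determination factors Myod1 and Myf5 act upstream of myogenin and the MEF2 proteins, cells leave the cell cycle, fuse through myomaker and myomixer, and then build sarcomeres, the contractile units of muscle. Cells that do not fuse stay behind as reserve cells, so a day 5 culture holds several kinds of cell.

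Polyadenylated RNA was sequenced with a kit that does not keep strand, so reads of overlapping or antisense genes cannot be told apart. Library totals of estimated counts lay between 18060819 and 18890018 in uninduced and between 13520906 and 18271985 in induced Zfp143 siRNA cells. Replicate 1 of the induced Zfp143 siRNA group was the shallowest library, and its mitochondrially encoded share was 1.95% of counts against 3.44% and 3.47% in replicates 2 and 3. In uninduced control cells replicate 3 had a share of 6.02% against 2.63% and 2.90% in the other two. The first principal component of log2 CPM (the count of a gene relative to its library's total, scaled by TMM) held 76.8% of the variance and split uninduced from induced libraries. On it the induced Zfp143 siRNA libraries lay at 85.28 to 93.3 and the induced control libraries at 105.92 to 106.48. Uninduced Zfp143 siRNA libraries lay at -93.98 to -89.87 and uninduced control libraries at -111.84 to -97.59. The second component (8.31%) parted the siRNAs at day 0, at 40.57 to 50.63 (Zfp143) and -47.71 to -38.48 (control). At day 5 all libraries lay between -6.52 and 3.41 on it.

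Zfp143 itself was at 12.2, 11.9 and 10.1 CPM in the uninduced and 14.7, 16.8 and 19.7 CPM in the induced Zfp143 siRNA libraries. The groups did not overlap, and Zfp143 rose by 0.59 ± 0.19 on the log2 scale (SE; edgeR quasi-likelihood test, adjusted p = 0.012, n = 3 and 3). The exact two-sided permutation test over these 6 libraries gave p = 0.1, the smallest it allows. The call was lost without uninduced replicate 3 (adjusted p = 0.056) or without induced replicate 3 (adjusted p = 0.057). With the control siRNA Zfp143 went the other way, from 23.2, 27.8 and 39.8 to 19.7, 19.3 and 19.2 CPM, a log2 change of -0.64. The difference between the 2 responses was 1.22 ± 0.26 (adjusted p = 0.0036). As a check of the labels, at day 0 every Zfp143 siRNA library was below every control library. At day 5 the highest Zfp143 siRNA library and the highest control library were both at 19.7 CPM.

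Induction changed most of the measured transcriptome in Zfp143 siRNA cells. Of 15030 genes tested, 5406 were higher (36%) and 4526 lower (30.1%) at day 5 at an adjusted p under 0.05, with 3364 of the rises and 2300 of the falls over 2-fold. With the control siRNA, in libraries that share no sample with these, 4992 genes were higher (33.2%) and 4644 lower (30.9%). Both siRNAs gave a rise for 3868 genes and a fall for 3356, while 171 genes rose with the Zfp143 siRNA and fell with the control siRNA and 156 did the reverse. Rises over 8-fold numbered 852 with the Zfp143 siRNA and 1237 with the control siRNA. The median gene changed by 0.10 (log2). Scaling by library size alone moved this median to 0.35 and the calls to 6597 higher and 3371 lower, 66.2% of calls being rises against 54.4%. In TPM (a level relative to the library that also divides by transcript length) the median gene was 0.69 higher at day 5, which is 0.585 above its CPM value. For a typical gene a fall in CPM smaller than that is no fall in TPM. Changes below are read against the median gene, and a gene with no fall in TPM can still have fallen against it. The gene lists below were chosen with earlier results of these data known. Their shares are set beside those of all tested genes as a description only. Where a passage does not repeat the latter, they are 36% higher and 30.1% lower with the Zfp143 siRNA.

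**Figure D1:**
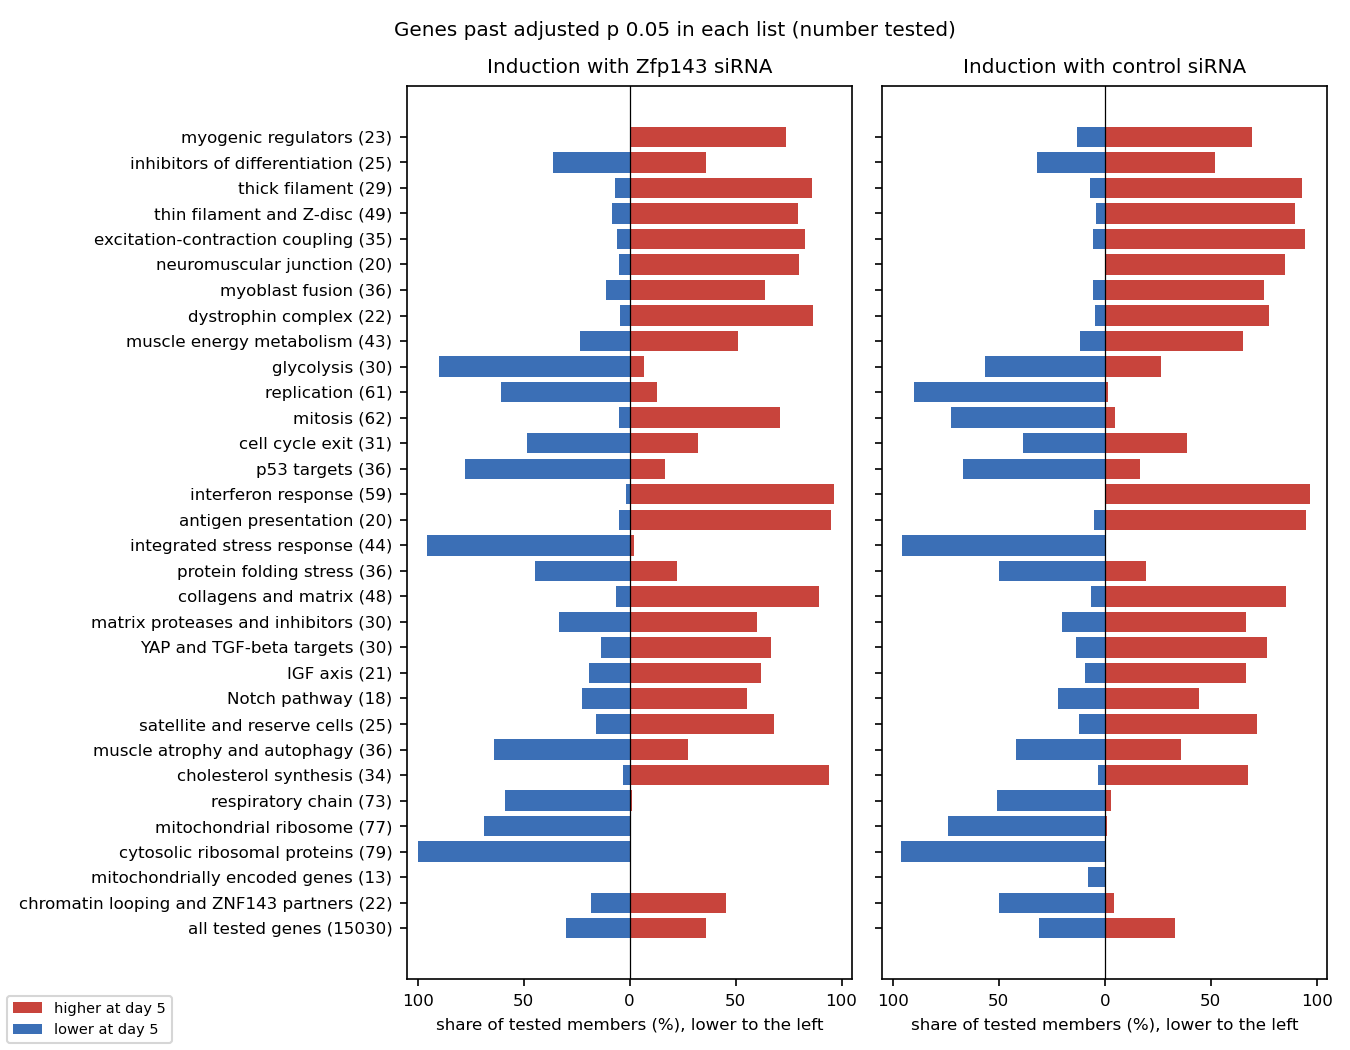
For each of 31 gene lists and for all tested genes, bars give the share of tested members past adjusted p 0.05, with members higher at day 5 to the right (red) and lower to the left (blue), for the Zfp143 siRNA (left panel) and the control siRNA (right panel). The number tested stands in brackets; the mitosis bar points right with the Zfp143 siRNA (44 of 62 higher) and left with the control siRNA (45 of 62 lower).

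Several of the lists that moved together carry short sequence motifs known from their usual regulators in the 250 bases before the gene start. Windows were taken from RefSeq (mouse build GRCm38.p6), were found for 10384 of the tested genes, and were searched on both strands. The core of the interferon-stimulated response element, TTTCNNTTT, stood in 28 of 43 windows of the interferon response list (65.1%), against 6.98% of the windows of tested genes and 9.37% of all 32851 windows. The amino acid response element, TGATGNAA, stood in 8 of 31 windows of the integrated stress response list (25.8%), against 2.08% and 3.45%. The MyoD-type E-box CAGCTG, a palindrome, stood in 12 of 40 windows of the thin filament and Z-disc list (30%), against 11.9% and 13%. The cell cycle homology region TTTGAA stood in 17 of 52 windows of the mitosis list (32.7%), against 10.5% and 16%. The E2F core TTTNNCGC stood in 11 of 47 windows of the replication list (23.4%), against 7.17% and 4.28%. The sterol regulatory core TCACNCCAC stood in 1 of 25 windows of the cholesterol synthesis list (4%), against 0.934% and 1.05%. These are matches of letters in a window, not measured binding. Below is, for each list, the stretch around the match nearest the gene start in the called member of smallest p that holds one, 5′ to 3′ on the gene's strand, with the matched letters, or their reverse complement, in capitals.
Tnni1 (thin filament; chr1:135799308-135799403, plus strand): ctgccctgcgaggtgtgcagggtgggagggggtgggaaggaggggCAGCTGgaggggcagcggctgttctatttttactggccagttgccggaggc
Irgm2 (interferon response; chr11:58214869-58214967, plus strand): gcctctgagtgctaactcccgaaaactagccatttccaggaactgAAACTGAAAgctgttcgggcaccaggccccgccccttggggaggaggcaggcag
Atf3 (integrated stress response; chr1:191183391-191183488, minus strand): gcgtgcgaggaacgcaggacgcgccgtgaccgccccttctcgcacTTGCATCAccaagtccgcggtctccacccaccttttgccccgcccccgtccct
Hmgcs1 (cholesterol synthesis; chr13:119690169-119690267, plus strand): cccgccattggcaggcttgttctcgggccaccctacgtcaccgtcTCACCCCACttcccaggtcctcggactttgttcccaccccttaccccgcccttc
Ccnb2 (mitosis; chr9:70421671-70421766, minus strand): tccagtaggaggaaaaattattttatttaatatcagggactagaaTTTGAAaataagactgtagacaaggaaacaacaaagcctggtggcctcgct
Orc1 (replication; chr4:108579382-108579453, plus strand): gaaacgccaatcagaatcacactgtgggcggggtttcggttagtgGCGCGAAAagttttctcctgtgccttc

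Of 23 tested myogenic regulators, 17 rose with induction in Zfp143 siRNA cells and none fell, against 36% and 30.1% of all tested genes. The list median was 0.92 (log2) against 0.10 for all tested genes. Myog, the factor that commits myoblasts to differentiation, was at 1.94, 1.65 and 1.75 CPM uninduced and 242, 171 and 168 CPM induced. All induced libraries lay far above the uninduced ones, a rise of 6.76 ± 0.19 (edgeR, adjusted p = 1.4e-12), and the control siRNA gave 6.76. Myod1, the determination factor, rose from 6.56, 4.84 and 8.19 to 66.2, 40.3 and 39.1 CPM, a log2 change of 2.89 ± 0.23 (adjusted p = 5.2e-08) against 2.99 with the control siRNA. The differences between the siRNAs for these genes did not pass the test. Myf5, the other determination factor, behaved differently. It was at 14.8, 17.2 and 18.8 CPM uninduced and 17.9, 17.5 and 15.6 CPM induced, overlapping groups with a log2 change of 0.01 ± 0.15 (adjusted p = 0.96). With the control siRNA it fell from 44.3, 62 and 64.1 to 24.9, 22.6 and 24.1 CPM (-1.25), and the difference was 1.26 ± 0.21 (adjusted p = 0.00079). Mef2c, a MEF2 factor of differentiated muscle, had no count in the uninduced Zfp143 siRNA libraries and 0.996, 1.04 and 1.75 CPM at day 5, which against a floor of 3 counts in each library is at least 7.31-fold higher. Induced control libraries stood well above this, at 11.4, 19.45 and 17.9 CPM, and the uninduced control libraries held 5 counts in all. With so few uninduced counts the test of the difference (edgeR, adjusted p = 0.63) says little about Mef2c. Smyd1, a muscle-restricted methyltransferase needed for myofibril assembly, rose by 6.62 from 0.171, 0.354 and 0.282 to 24.6, 27.8 and 29.1 CPM. Tcf4, an E protein that pairs with MyoD, rose more than with the control siRNA, by 1.94 ± 0.14 against 1.03 (adjusted p of the difference = 0.0033). In bulk RNA a change in the share of cells of a type and a change per cell cannot be told apart, here or below.

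Inhibitors of myogenic differentiation went both ways, with 9 of 25 higher and 9 lower, shares close to the 36% and 30.1% of all tested genes. Id1, an antagonist of E proteins and so of MyoD, fell from 56.8, 40.4 and 52.2 to 26.6, 21.9 and 22.2 CPM, a change of -1.08 ± 0.15 (adjusted p = 1.4e-05), and by a like amount with the control siRNA (-0.93). Id3, of the same family, rose by 1.74 ± 0.17, from 26.5 to 88.8 CPM. Hmga2, a chromatin protein of proliferating myoblasts, had the deepest fall of the list, from 466, 502 and 463 to 36.4, 47.2 and 44.2 CPM (-3.48 ± 0.14, adjusted p = 4.2e-11). Bhlhe40, a repressor of the bHLH family, dropped from 400.5, 420.3 and 442 to 90.1, 74 and 77.9 CPM (-2.38 ± 0.14). With the control siRNA it rose from 88.1 to 132 CPM on average, and the difference of -2.97 ± 0.21 passed the test (adjusted p = 4e-07). The uninduced Zfp143 siRNA libraries stood far above the other groups for this gene. Zeb1 rose by 1.47 ± 0.11 and Hdac5 by 1.45 ± 0.16. Heyl, a Notch target, went from no counts to 4.12, 3.12 and 2.55 CPM, at least 18.9-fold higher. Jun, the most abundant member at 382 TPM, was at 662, 649.7 and 704 CPM uninduced and 776, 528 and 492 CPM induced, with overlapping groups (adjusted p = 0.38).

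Sarcomere genes were among the steepest rises. Of 29 tested thick filament genes 25 were higher and 2 lower, with a list median of 6.47 (4.61 with genes that had no uninduced counts set at their bound). Myh3, the embryonic myosin heavy chain, was at 0, 0 and 0.0565 CPM uninduced, a single count in all, and at 570.5, 489 and 550.4 CPM induced. Summed over libraries the counts stood in a ratio of 27810 (95% interval 4992 to 1099000, for counting error only). Mylpf, the fast regulatory light chain, rose from 0.0571, 0.177 and 0.113 to 330.4, 358 and 328 CPM (11.44 ± 0.52, adjusted p = 4.8e-13). It was the most abundant thick filament transcript per length at day 5, at 1011 TPM. Myl4, an embryonic and atrial light chain, rose by 6.64 ± 0.30 to 53.3, 45.8 and 46.8 CPM, which was less than the 9.82 of the control siRNA (difference -3.18 ± 0.50, adjusted p = 0.00031). Myl1 had 0, 0 and 0.0565 CPM uninduced and 156, 159.6 and 159.5 CPM induced. Myh1, an adult fast myosin, and Mybph, a thick filament binding protein, had no count in the uninduced Zfp143 siRNA libraries and were at least 720.1-fold and 1169-fold higher after it. The 2 members that fell are not filament proteins: Hsp90aa1, a cytosolic chaperone, went from 3102 to 733 CPM (-2.08), and Smyd2 from 94.4 to 45.1 CPM (-1.07). The response lay lower with the Zfp143 siRNA than with the control siRNA for 9 of 29 members, against 11.8% of all tested genes, and higher for none. At day 5 mean levels were above those of the control siRNA in only 1 of 29 members (median gap -1.66 on the log2(CPM + 0.1) scale). Myh1 averaged 124 CPM with the Zfp143 siRNA and 975 CPM with the control siRNA. For Myl1 the means were 158.5 and 843.5 CPM, for Mylpf 339 and 964 CPM and for Myh3 536.5 and 1578 CPM. Uninduced counts of these genes were few or none, so the test of the difference says little about them.

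Thin filament and Z-disc genes followed, with 39 of 49 higher, 4 lower and a median of 4.15 (2.80 with bounds). Acta1, skeletal alpha-actin, rose from 0.285, 0.295 and 1.13 to 1729, 1277 and 1299 CPM and at 1961 TPM was the most abundant member at day 5. Its rise of 11.27 ± 0.42 (adjusted p = 6.3e-12) differed by -3.59 ± 0.86 from that with the control siRNA (adjusted p = 0.0032). Control libraries went from 0.217, 0.165 and 0 to 4136, 4707 and 3777 CPM. Uninduced counts of Acta1 were few, 7 in all with the control siRNA and 30 with the Zfp143 siRNA, so the size of this difference is uncertain. Actc1, cardiac alpha-actin, had no count in the uninduced Zfp143 siRNA libraries and 70.9, 69.3 and 80.6 CPM at day 5, at least 426-fold higher. The troponins, which make contraction depend on calcium, rose in every named case. Tnni1, the slow inhibitory subunit whose promoter stretch is shown above, went from 1.31, 0.827 and 0.735 to 124, 112 and 107 CPM (6.89 ± 0.23). Control libraries started lower, at 0.0543, 0.11 and 0.0657 CPM, and ended higher, at 410.1, 461 and 335 CPM, so the difference was -5.34 ± 0.68 (adjusted p = 2.7e-06). Tnnt1 rose by 7.05 ± 0.25 to 74.7 CPM and Tnnt3 by 8.47 ± 0.32 to 179 CPM, both less than with the control siRNA (adjusted p of the differences = 3.3e-05 and 0.0013). Tnnc2, fast troponin C, had 0.0571, 0 and 0.113 CPM before and 83.8, 97.2 and 104 CPM after induction. The clearest exception was Cryab, a small heat shock protein of the Z-disc. It fell from 189.8, 175 and 181 to 122, 112 and 98.2 CPM (-0.71 ± 0.14, adjusted p = 0.00032), whereas it rose by 2.31 with the control siRNA, from 38.2 to 189 CPM (difference -3.02 ± 0.19, adjusted p = 2.9e-07). Tpm3, a tropomyosin found in many cells, fell by 0.72 (SE 0.11) in CPM (252 TPM before and 239 TPM after), and Tmod4, a cap of the thin filament, by 1.69 (SE 0.34) at a level of 3 CPM. The response lay lower with the Zfp143 siRNA for 26 of 49 members and higher for 1, against 11.8% and 10.6% of all tested genes.

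Of 35 excitation-contraction coupling genes, which carry the action potential to calcium release, 29 rose and 2 fell, with a median of 2.64 (2.39 with bounds). Ryr1, the calcium release channel, went from 1.26, 0.413 and 0.396 to 174, 109 and 140.2 CPM (7.66 ± 0.39), against 8.22 with the control siRNA. Cacna1s, its voltage-sensing partner, had a single count before induction and 37.2, 25.5 and 33.7 CPM after it. Casq2, a calcium-binding protein of the sarcoplasmic reticulum, rose from 0.628, 0.472 and 0.509 to 128, 141 and 159 CPM, by 8.04 ± 0.30 against 12.23 (difference -4.20 ± 0.77, adjusted p = 0.00017). Control libraries of Casq2 held 0.163, 0 and 0.0657 CPM before induction, 4 counts in all, and 344, 481 and 389 CPM after it. Srl, sarcalumenin, rose by 6.52 ± 0.21 against 7.71 (adjusted p of the difference = 0.0081). Those that fell were Mtm1, a lipid phosphatase of triads, by 1.55 (SE 0.19), and Fkbp1a, a widely expressed receptor-associated prolyl isomerase, by 0.77 (SE 0.12) in CPM (329 TPM before and 297 TPM after). For 15 of 35 members the response lay lower with the Zfp143 siRNA, against 11.8% of all tested genes. It lay higher for 1 (10.6% of all tested genes), Mtm1, which fell less.

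At the neuromuscular junction 16 of 20 genes rose and 1 fell, against 36% and 30.1% of all tested genes. Chrng, the fetal acetylcholine receptor subunit, rose from 1.14, 0.472 and 0.396 to 80.6, 60.4 and 66.1 CPM (6.67 ± 0.31, adjusted p = 1.6e-11), less than the 8.79 of the control siRNA (adjusted p of the difference = 0.0056). The organizers Agrn and its receptor Lrp4 rose by 3.26 ± 0.20 and 3.49 ± 0.20, to 424, 283 and 315 and 155, 123 and 136 CPM, close to the control values of 3.06 and 3.17. Erbb3, a neuregulin receptor, rose by 6.16 ± 0.43 to 21.1 CPM. Etv5, an ETS factor of the synapse that also follows growth factor signals, fell by 0.94 (SE 0.15) but rose by 0.50 with the control siRNA (difference -1.44 ± 0.22, adjusted p = 0.00033). In the dystrophin complex, which ties the cytoskeleton to the matrix, 19 of 22 genes rose and 1 fell, against the same shares. Dag1, dystroglycan, was its most abundant member and rose from 64.9, 62.5 and 70 to 431, 324 and 354 CPM (2.49 ± 0.14). Sntb1 rose by 4.05 ± 0.16 and Sspn by 3.15 ± 0.15. Only Sspn of these 3 differed between the siRNAs by test, with a larger rise than the 2.12 of the control siRNA (adjusted p = 0.0027).

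Both fusogens rose. Mymk (myomaker) went from 1.03, 1.06 and 0.904 to 92.1, 79.2 and 79.3 CPM (6.38 ± 0.24, adjusted p = 5.1e-12), and Mymx (myomixer) from 0.114, 0.059 and 0 to 15.4, 11.8 and 13.4 CPM, with summed counts in a ratio of 232.6 (95% interval 79.27 to 1130). The control siRNA took Mymk from 0.217, 0 and 0.131 to 185, 214 and 172 CPM, so its response differed by -4.22 ± 0.61 (adjusted p = 2.5e-05). The uninduced control level lay near the floor of 3 counts per library. Tmem182, a muscle membrane protein, behaved in the same way, with 0.4, 0.59 and 0.452 CPM before and 34.3, 43.6 and 46.5 CPM after induction. In the fusion list 23 of 36 genes rose and 4 fell, against 36% and 30.1% of all tested genes. Anxa1, the most abundant member, rose by 0.77 ± 0.21. Among the 4, Cd53, a tetraspanin best known from leukocytes, fell from 30, 25.9 and 23.1 to 2.19, 2.52 and 2.3 CPM (-3.48 ± 0.21). In control cells Cd53 stood at 2.41 CPM before and 4.94 CPM after induction, a rise of 1.04 (difference -4.53 ± 0.30, adjusted p = 2.9e-07).

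**Figure D2:**
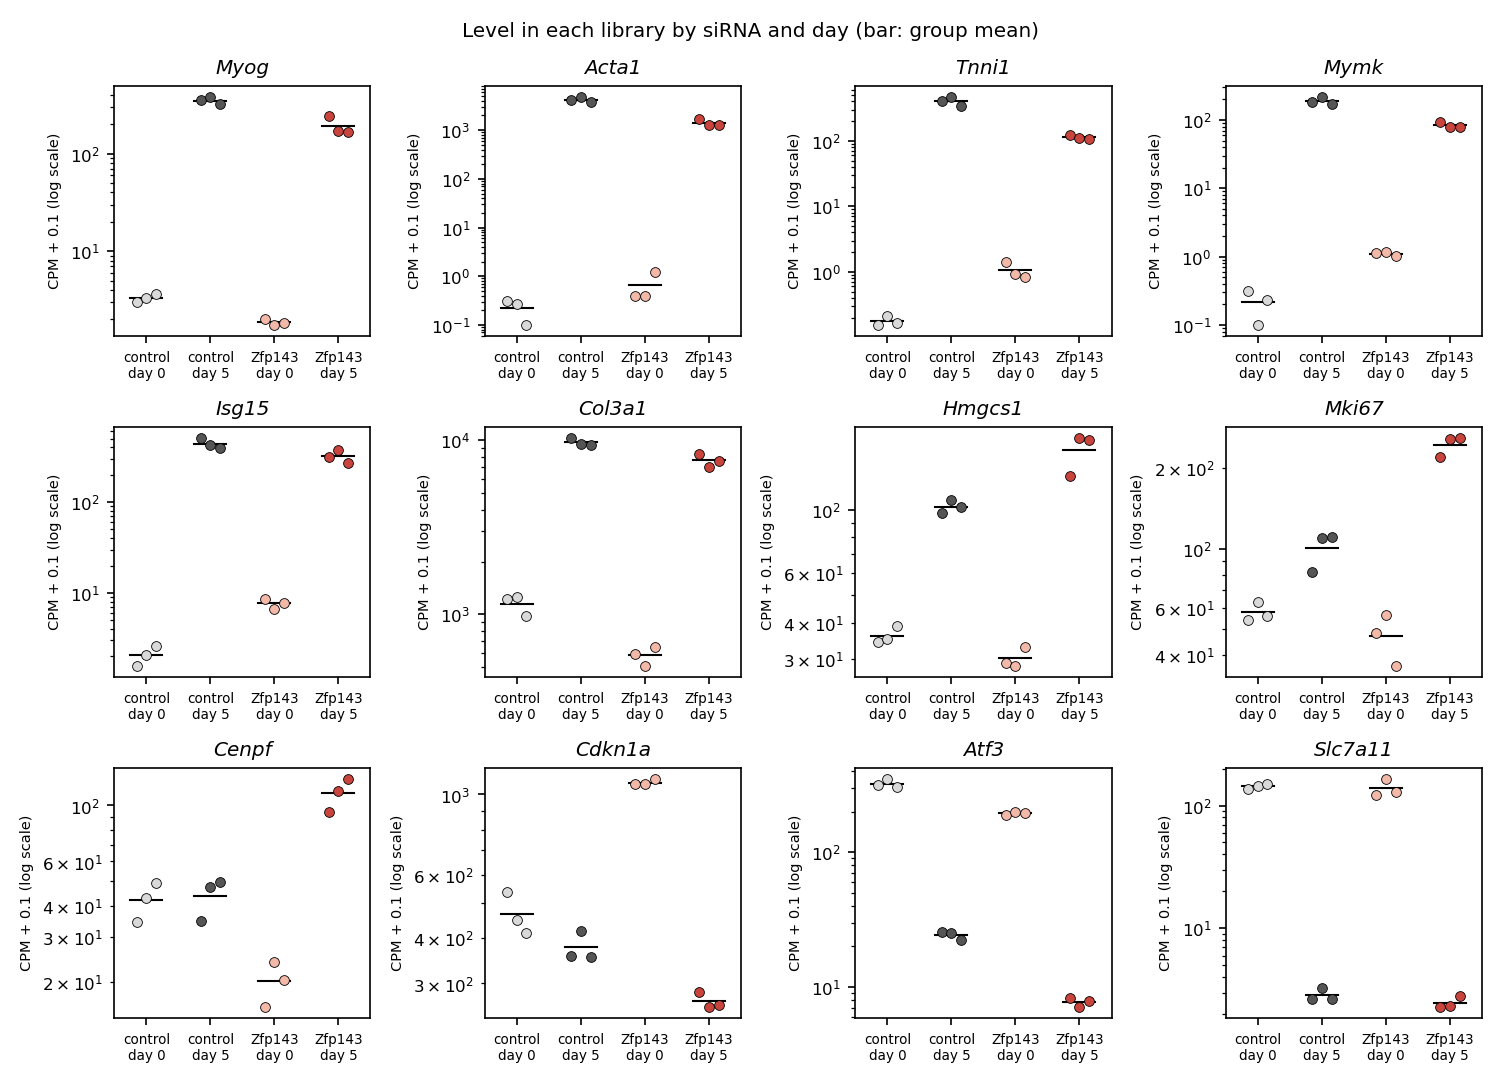
Level of 12 genes in every library (points; CPM + 0.1 on a log axis) by siRNA and day, with the group mean as a bar. Muscle genes, Isg15 and Col3a1 climbed by day 5 with both siRNAs, Mki67 and Cenpf stood highest in the Zfp143 siRNA day 5 libraries, and Cdkn1a stood highest in the Zfp143 siRNA day 0 libraries, at 1066 to 1101 CPM.

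Energy metabolism genes went both ways. Of 43 muscle energy genes 22 rose and 10 fell, against 36% and 30.1% of all tested genes. Ckm, muscle creatine kinase, was at 0, 0.118 and 0.0565 CPM uninduced and 62, 46.4 and 49.4 CPM induced, with summed counts in a ratio of 899.8 (95% interval 307.6 to 4366), while the induced control libraries reached 286, 367 and 258 CPM. Ckb, the brain isoform, rose from 2.81 to 34.4 CPM (3.60 ± 0.24) and Pdk4, which restrains pyruvate oxidation, from 46.4 to 192 CPM (2.05 ± 0.13). Aldoa, Ldha and Cox6a2 fell by 1.47, 2.05 and 2.52. Glycolysis and the genes that respond to low oxygen fell nearly as a whole, with 27 of 30 lower and 2 higher and a median of -1.55. Hk2, hexokinase, dropped from 450.5, 526 and 517 to 85.2, 70.6 and 77.4 CPM (-2.68 ± 0.13, adjusted p = 4.2e-10) against -1.18 with the control siRNA (adjusted p of the difference = 6e-05). Ndrg1, a stress gene induced by hypoxia, fell from 1583, 1747 and 1763 to 71.7, 72.1 and 75.7 CPM, by a like amount with both siRNAs (-4.54 and -4.52). Egln3, an oxygen-sensing prolyl hydroxylase and itself a hypoxia target, fell from 229, 209 and 232 to 40, 39.9 and 40 CPM (-2.48 ± 0.11) but rose with the control siRNA, from 68.7 to 116 CPM (difference -3.24 ± 0.16, adjusted p = 3.6e-08). Gapdh, the most abundant member, fell by 1.55 (SE 0.20). The exceptions were Pfkm, the muscle isoform of phosphofructokinase, which rose from 45.3, 39.6 and 45.7 to 127, 114 and 111 CPM (1.43 ± 0.12), and Aldoc at 2.44 CPM. For 21 of 30 members the response lay lower with the Zfp143 siRNA and for none higher, against 11.8% and 10.6% of all tested genes. At day 0 these genes were already higher with the Zfp143 siRNA in 27 of 30 cases, by a median of 0.71 on the log2(CPM + 0.1) scale, and at day 5 in 6 of 30 (median -0.19).

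Mitosis genes separated this induction from that with the control siRNA, and no other list had so large a share of members that differed. Of 62 tested members, all of the list, 44 rose, 3 fell and 15 did not pass the test, with a median of 0.85, while with the control siRNA 3 rose and 45 fell (median -0.80). The difference was upward for all 62 and passed the test for 60, against 10.6% of all tested genes. Mki67, the proliferation marker Ki-67, was at 48.2, 56.5 and 36.4 CPM uninduced and 220.5, 257 and 259 CPM induced. All induced libraries lay well above the highest uninduced one, a rise of 2.38 ± 0.16 (edgeR, adjusted p = 1.2e-08) against 0.80 with the control siRNA (difference 1.58 ± 0.23, adjusted p = 0.0002). Cenpf, a kinetochore protein of G2 and mitosis, went from 15.8, 24 and 20.2 to 94.3, 114 and 127 CPM (2.48 ± 0.19), while control libraries held 34.6, 43 and 49.1 CPM before and 34.6, 47.3 and 49.5 CPM after. Its difference of 2.43 ± 0.26 (adjusted p = 1.7e-05) was the largest of the list. Ccnb2, a mitotic cyclin, rose from 7.13, 6.55 and 8.48 to 47.1, 52.4 and 45.4 CPM (2.71 ± 0.14), and its stretch with a cell cycle homology region is shown above. Kif20a, a kinesin of cytokinesis, rose from 19.5, 17.6 and 17.6 to 95, 102 and 95.4 CPM (2.41 ± 0.12, adjusted p = 4.1e-10), and control libraries did not pass the test (0.21). Ube2c, the ubiquitin-conjugating enzyme of the anaphase-promoting complex and the most abundant member at 191 TPM, rose by 0.83 ± 0.14 and fell with the control siRNA (-1.15, adjusted p of the difference = 1e-05). For Ccnb1, the main mitotic cyclin, the induced libraries at 59.5, 85.7 and 72.3 CPM overlapped the uninduced ones at 50.9, 61.2 and 48.1 CPM (log2 change 0.44 ± 0.22, adjusted p = 0.089). Control libraries fell from 71.6, 90.2 and 150.2 to 28.6, 29 and 24.1 CPM, so that the difference was 2.38 ± 0.31 (adjusted p = 0.0001). Among the members that fell was Bub3, a checkpoint protein, by 0.69 (SE 0.16) in CPM (85.1 TPM before and 82.1 TPM after). Scaled by library size alone, 1 member fell instead of 3. Set side by side by day, the mitosis genes were lower with the Zfp143 siRNA at day 0 for 56 of 62 (median -0.36) and higher at day 5 for 62 of 62 (median 1.23). The larger gap was at day 5 for every member.

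Replication genes did not follow mitosis as far. Of 61 tested, 8 rose and 37 fell with a median of -0.54 in CPM, which is 0.09 in TPM and 0.59 below the median gene there. Scaled by library size alone, 13 rose. In control cells 1 rose and 55 fell. Pcna, the sliding clamp, fell from 292, 293 and 271 to 59.3, 86.9 and 80.9 CPM (-1.91 ± 0.22, adjusted p = 3.7e-06), as far as with the control siRNA (-1.93). Orc1, of the origin recognition complex, fell from 14.6, 14.8 and 16.3 to 3.65, 3.71 and 3.55 CPM (-2.06 ± 0.16), and Ccne2, the cyclin of S phase entry, from 68.4, 80.7 and 56.9 to 7.77, 11.7 and 10.3 CPM (-2.78 ± 0.24). Mcm2, of the replicative helicase, fell by 1.45 (SE 0.12) against -2.42 with the control siRNA (difference 0.97 ± 0.17, adjusted p = 0.001). The rises included Brca2, a recombination protein, from 7.88, 10.2 and 7.12 to 15, 22.3 and 21.3 CPM (1.22 ± 0.19), Timeless, a fork protection protein, from 20.7, 20.8 and 22 to 40.9, 40.4 and 34.4 CPM (0.86 ± 0.14), and Dnmt1, the maintenance methyltransferase, by 0.76 ± 0.14. Timeless fell with the control siRNA (-1.01), a difference of 1.88 ± 0.20 (adjusted p = 1.2e-05). Upward differences passed the test for 30 of 61 members and downward ones for 1, against 10.6% and 11.8% of all tested genes.

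Genes of cell cycle exit went both ways, with 10 of 31 higher and 15 lower, against 36% and 30.1% of all tested genes, so that the share of rises was near that of all genes. Cdkn1a, the inhibitor p21 that locks differentiating myoblasts in G1, was at 1066, 1067 and 1101 CPM uninduced and fell to 284, 258 and 262 CPM (-2.01 ± 0.13, adjusted p = 6.1e-09). Control libraries stood at 536, 448 and 415 CPM before and 358, 419.6 and 356 CPM after induction, which did not pass the test (-0.30). The difference was -1.70 ± 0.18 (adjusted p = 1.7e-05), and the uninduced Zfp143 siRNA libraries were the group that stood apart. Ccng2, a cyclin of quiescent cells, showed the same pattern, falling from 283, 288 and 292 to 48.8, 63.5 and 68.5 CPM (-2.25 ± 0.14) against 0.04 with the control siRNA (adjusted p of the difference = 2.8e-06). Cdkn1c, the inhibitor p57, rose from 0.228, 0.059 and 0.282 to 1.4, 1.19 and 1 CPM (2.59 ± 0.64), a low level throughout. Cdkn2c, the inhibitor p18, rose by 1.37 ± 0.14 and Rbl2, the pocket protein p130, by 1.21 ± 0.12, close to the control values of 1.29 and 1.01. Ccnd1, the cyclin of G1, fell from 149, 154 and 162 to 79.3, 76.4 and 59.5 CPM (-1.11 ± 0.13) and Ccnd2 from 112 to 19.9 CPM (-2.49 ± 0.12). Gas1, a growth arrest protein, had the largest rise of the list, from 41.6, 36 and 41.3 to 1133, 749.7 and 724 CPM (4.45 ± 0.17). Targets of p53 fell in 28 of 36 cases and rose in 6 (median -1.83), against 30.1% and 36% of all tested genes. Mdm2, the ubiquitin ligase of p53, went from 1312, 1659 and 1398 to 119, 141 and 149.9 CPM (-3.41 ± 0.14), Gdf15, a stress cytokine, from 327, 309 and 338 to 23.3, 13.7 and 11.5 CPM (-4.34 ± 0.21), and Tnfrsf10b, a death receptor, fell by 2.82 (SE 0.11). Sesn1 and Dram1 rose, by 2.59 ± 0.14 and 2.37 ± 0.14. In control cells 24 of the 36 fell.

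Interferon-stimulated genes, which cells switch on in antiviral defence, rose almost without exception. Of 59 tested 57 were higher and 1 lower, with a median of 5.85 (5.39 with bounds). Isg15, a ubiquitin-like modifier, went from 8.5, 6.55 and 7.57 to 311, 369.9 and 271 CPM (5.39 ± 0.17, adjusted p = 7.8e-12). Ifit1, an RNA-binding effector, rose from 9.07, 10.4 and 8.19 to 539, 617 and 493 CPM (5.89 ± 0.13) and Irgm2, an immunity GTPase whose promoter stretch is printed above, from 1.48, 1.24 and 1.13 to 209, 218 and 199 CPM (7.33 ± 0.17). Ifi44 rose by 8.96 ± 0.26 and Xaf1 by 7.05 ± 0.22. Ifi27l2a had no count in the uninduced Zfp143 siRNA libraries and 293, 323 and 262 CPM at day 5, at least 1696-fold higher, and at 2798 TPM it was the most abundant of the list. The sensors Oas2 and Oas3 were also without counts before induction and at least 617-fold and 230.3-fold higher after it. The member that fell was Ifi27, by 0.55 (SE 0.16) in CPM but not in TPM (138 before and 138 after), a call lost when libraries were scaled by size alone (adjusted p = 0.078). The same direction was seen with the control siRNA, where 57 rose and none fell (median 7.95). For 31 of 59 members the response lay lower with the Zfp143 siRNA and for 2 higher, against 11.8% and 10.6% of all tested genes. For Isg15 the difference was -2.41 ± 0.27 (adjusted p = 1.8e-05), and its levels were 1.47, 1.98 and 2.5 and 502, 423 and 395 CPM in uninduced and induced control libraries. Among the 31 the gap between the siRNAs was larger at day 0 than at day 5 in 30, the Zfp143 siRNA cells starting higher. Antigen presentation genes rose with them, 19 of 20 (median 1.81), against 36% of all tested genes. B2m, the light chain of MHC class I, rose from 376, 311 and 325 to 989.5, 898 and 854 CPM (1.44 ± 0.22), H2-T23, a nonclassical heavy chain, from 13.1 to 288 CPM (4.46 ± 0.16), and Tapbp, tapasin of the loading complex, from 34.6 to 601 CPM (4.12 ± 0.16). H2-T23 belongs to a family of similar genes, among which counts may be split. Cd74, the class II invariant chain, fell from 41.2, 37.9 and 43.1 to 4.65, 5.59 and 3.6 CPM (-3.14 ± 0.19).

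The integrated stress response, the program of ATF4 that follows amino acid and translation stress, fell in 42 of 44 members and rose in 1 (median -2.49), and 42 fell with the control siRNA (median -2.55). Atf4 went from 1302, 1249 and 1254 to 279, 258 and 243 CPM (-2.29 ± 0.12, adjusted p = 1e-09), a deeper fall than the -1.43 of the control siRNA (difference -0.85 ± 0.18, adjusted p = 0.0031). Atf3, a target whose promoter stretch is shown above, fell from 189, 198 and 196 to 8.1, 6.98 and 7.76 CPM (-4.67 ± 0.12). Slc7a11, the cystine transporter, fell from 121, 163 and 129 to 2.19, 2.23 and 2.7 CPM (-5.85 ± 0.16), close to the control value of -5.69. The folate enzymes of mitochondria fell with it, Mthfd2 by 3.17 (SE 0.10) and Aldh1l2 by 4.48 (SE 0.14). Slc38a2, an amino acid transporter and the most abundant member at 338 TPM, fell by 0.63 in CPM. In TPM it did not fall (332 before and 338 after), but the median gene rose by 0.69 there. Fgf21, a stress hormone, was the member that rose (0.43 ± 0.15, adjusted p = 0.019), a call lost without uninduced replicate 1 (adjusted p = 0.094) or induced replicate 2 (adjusted p = 0.056). Protein folding genes went both ways, with 8 of 36 higher and 16 lower against 36% and 30.1% of all tested genes, a smaller share of rises and a larger one of falls. Of the cytosolic heat shock genes, Dnajb1 fell from 293, 293 and 297 to 35.1, 35.1 and 35.1 CPM (-3.07 ± 0.12) and Hspa1b, inducible HSP70, from 359, 352 and 355 to 88.4, 55.4 and 55.4 CPM (-2.42 ± 0.18). Control libraries held 32.5, 24.6 and 21.2 CPM of Hspa1b before and 43.8, 42.4 and 42.5 CPM after induction, a rise of 0.71 (difference -3.14 ± 0.25, adjusted p = 1.6e-06). Hspa1b has a near-identical copy, Hspa1a, with which reads may be shared. Xbp1, a transcription factor of the endoplasmic reticulum stress response, rose from 50.9, 48.6 and 55.7 to 111, 112 and 106 CPM (1.08 ± 0.11) and fell with the control siRNA (-0.47, difference 1.55 ± 0.16, adjusted p = 1.2e-05). Sel1l, of the degradation machinery in that compartment, rose by 1.01 ± 0.14.

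Of 48 collagens and other matrix genes 43 rose and 3 fell (median 2.17), against 36% and 30.1% of all tested genes. Col3a1, fibrillar collagen III, rose from 592, 504 and 647 to 8323, 7069 and 7592 CPM (3.72 ± 0.15). Nid2, a basement membrane protein, went from 15.3, 12 and 14.4 to 795, 576 and 636 CPM (5.59 ± 0.18), and Postn, periostin, from 3.31, 2.19 and 2.15 to 226, 197 and 228 CPM (6.41 ± 0.22), both rising less than with the control siRNA (6.85 and 8.12, adjusted p of the differences = 0.004 and 0.0012). Spp1, osteopontin, stayed the most abundant matrix transcript at 3421 TPM although it fell from 6170.0, 5242 and 5557 to 2256, 2055 and 1885 CPM (-1.45 ± 0.20). Col18a1 and Nid1 fell by 1.20 and 0.82. Matrix proteases and their inhibitors were mixed, with 18 of 30 higher and 10 lower, against 36% and 30.1% of all tested genes. The share of falls was near that of all genes. Mmp9, a gelatinase, rose from 0.742, 0.827 and 1.07 to 145, 101 and 98.5 CPM (7.01 ± 0.27) and the aggrecanase Adamts5 from 9.76 to 75.4 CPM (2.95 ± 0.16). The urokinase receptor Plaur fell from 196, 178 and 209 to 14, 11.7 and 11.4 CPM (-3.98 ± 0.12), further than the -2.96 of the control siRNA (adjusted p of the difference = 0.00089). Of 30 targets of YAP and TGF-beta 20 rose and 4 fell, against 36% and 30.1% of all tested genes. Acta2, smooth muscle alpha-actin, which early myotubes also make, rose from 35.3, 31.5 and 41.1 to 1451, 1366 and 1390.0 CPM (5.28 ± 0.15), less than the 7.76 of the control siRNA (adjusted p of the difference = 2.8e-06). The ligands Tgfb3 and Tgfb2 rose by 2.78 ± 0.12 and 2.60 ± 0.14, close to the control siRNA's 2.52 and 2.23. The transducer Smad3 rose by 2.45 ± 0.13, the inhibitor Smad7 fell by 1.85 (SE 0.20), and the ligand subunit Inhba fell by 1.68 (SE 0.17).

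The insulin-like growth factor axis drives myoblast differentiation in an autocrine way. Of its 21 genes 13 rose and 4 fell, against 36% and 30.1% of all tested genes. The ligand Igf2 went from 1.83, 3.13 and 3.79 to 202, 152 and 162 CPM (5.88 ± 0.21, adjusted p = 1.3e-11) and its imprinted neighbour H19, a long noncoding RNA, from 312, 202 and 311 to 6006, 4704 and 4603 CPM (4.21 ± 0.19), reaching 4516 TPM. Downstream, the adaptor Irs1 rose by 1.98 ± 0.12 and the regulatory subunit Pik3r1 by 2.21 ± 0.14, the latter more than with the control siRNA (0.85, adjusted p of the difference = 0.00027). The binding protein Igfbp2 fell from 1132 to 409 CPM (-1.47 ± 0.14). In the Notch pathway, which keeps muscle progenitors undifferentiated, 10 of 18 genes rose and 4 fell, against 36% and 30.1% of all tested genes. The receptors Notch2 and Notch3 rose by 1.55 ± 0.17 and 1.82 ± 0.20, the coactivator Maml2 by 2.05 ± 0.16, and Hes6, an antagonist of the pathway in muscle, by 1.01 ± 0.18. The ligand Jag1 fell by 1.14 (SE 0.19), and Rbpj, the DNA-binding partner of all Notch receptors, fell from 188, 215 and 199 to 57.9, 63.9 and 67.7 CPM (-1.67 ± 0.11). Markers of satellite and reserve cells are those of the undifferentiated cells of a day 5 culture. They rose in 17 of 25 cases and fell in 4, against 36% and 30.1% of all tested genes. Vcam1, an adhesion receptor, went from 75.5, 65.3 and 74.5 to 362, 400.5 and 426 CPM (2.47 ± 0.15) and Angpt1, a niche ligand, from 28.4, 21.3 and 24.5 to 340.3, 501 and 569 CPM (4.25 ± 0.28), the latter less than the 6.11 of the control siRNA (adjusted p of the difference = 0.0045). Sdc4, a proteoglycan of satellite cells, fell by 0.62 (SE 0.11) in CPM, which is no fall in TPM (202 before and 208 after), and rose with the control siRNA (0.57, difference -1.19 ± 0.15, adjusted p = 8.1e-05).

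Genes of cholesterol synthesis answer to SREBP2. Their list also holds other lipid genes, such as Scd2, its most abundant member, and Lpin1. Of the 34 tested members 32 rose and 1 fell (median 1.67). Hmgcs1, the synthase before the rate-limiting reductase, went from 28.8, 28.2 and 32.9 to 132, 178 and 175 CPM (2.43 ± 0.13, adjusted p = 9.3e-10), more than with the control siRNA (difference 0.93 ± 0.19, adjusted p = 0.0026). It was also the only member with a sterol regulatory core in its window. Fdps, farnesyl diphosphate synthase, rose from 25.8, 25.1 and 24.3 to 148, 172 and 147 CPM (2.63 ± 0.11), also more than with the control siRNA (1.99, adjusted p of the difference = 0.011). Lpin1, a lipid phosphatase, fell by 0.76 (SE 0.17) in CPM (5 TPM before and 4.69 TPM after). Upward differences passed the test for 14 of 34 members and downward ones for 4 (2 when scaled by library size alone). Over all tested genes the shares were 10.6% and 11.8%, so the downward share was near that of all genes. With the control siRNA 23 rose and 1 fell. In contrast to the interferon list, among the 14 the gap between the siRNAs was larger at day 5 than at day 0 in 11.

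Ribosomal and mitochondrial gene lists differed by scale. All 79 tested cytosolic ribosomal protein genes fell (median -1.40 in CPM and -0.79 in TPM), among them Rpl12 from 2519, 2270.0 and 2395 to 527, 568 and 564 CPM (-2.11 ± 0.16) and Rps24, the most abundant at 4156 TPM, by 1.66 (SE 0.22). No difference between the siRNAs passed edgeR's test for this list (4 at an unadjusted p under 0.05, and 1 each by DESeq2 and limma-voom), but 40 downward differences did once uninduced control replicate 3 was left out. Of 77 mitochondrial ribosome genes 53 fell and none rose (median -0.63 in CPM, -0.02 in TPM), against 30.1% and 36% of all tested genes. Of 73 nuclear-encoded respiratory chain genes 43 fell and 1 rose (median -0.61 in CPM, -0.02 in TPM), against the same shares. On the TPM scale the medians of both lists were thus near 0, while both lay 0.7 below the median gene. Uqcrq, of complex III, fell from 290.4, 219.8 and 255 to 42.3, 54.7 and 44.9 CPM (-2.43 ± 0.18), Cycs, cytochrome c, from 422, 430.3 and 394 to 63.1, 99.3 and 87.7 CPM (-2.32 ± 0.25), and Sdha, of complex II, rose by 0.55 ± 0.11. None of the 13 mitochondrially encoded genes passed edgeR's test at an adjusted p under 0.05, although 2 had an unadjusted p under 0.05, and DESeq2 called 1 lower and limma-voom 2. Of 36 muscle atrophy and autophagy genes 23 fell and 10 rose, against 30.1% and 36% of all tested genes. Their median was -0.59 in CPM and -0.02 in TPM, the latter 0.705 below the median gene. Sqstm1, the autophagy receptor p62, fell from 5689, 5916 and 5593 to 1168, 990.4 and 916 CPM (-2.48 ± 0.14), equally with the control siRNA (-2.48). Bnip3, a mitophagy receptor induced by hypoxia, fell from 524, 522 and 519 to 48.4, 63.1 and 55.1 CPM (-3.23 ± 0.22), further than the -1.16 of the control siRNA (adjusted p of the difference = 0.00026). Fbxo32, the muscle ubiquitin ligase atrogin-1, rose from 38.1, 40.6 and 40 to 152, 159 and 171 CPM (2.02 ± 0.12), less than the 3.15 of the control siRNA (adjusted p of the difference = 0.00035).

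Of 22 looping factors and ZNF143 partners, among them cohesin and CTCF, 10 rose and 4 fell, with a median of 0.27, against 36% and 30.1% of all tested genes, whereas with the control siRNA 1 rose and 11 fell (median -0.39). Mau2, of the cohesin loader, rose from 30.4, 30.8 and 26.2 to 69.1, 54.6 and 56.4 CPM (1.04 ± 0.13) and Chd8, a remodeller known to bind CTCF, from 77, 90.3 and 79.5 to 140.5, 132 and 141 CPM (0.75 ± 0.12). Pds5b, a cohesin regulator, rose by 0.74 ± 0.15 and Bptf by 0.81 ± 0.18. Yy1 fell from 148, 155 and 150.4 to 80, 73.5 and 80.7 CPM (-0.95 ± 0.11) and Wapl, which releases cohesin, by 0.67 (SE 0.17) in CPM, which is no fall in TPM (37.1 before and 36.8 after). Upward differences between the siRNAs passed the test for 10 of 22 members and downward ones for none, against 10.6% and 11.8% of all tested genes. Without induced Zfp143 siRNA replicate 1 and uninduced control replicate 3, the libraries that stand apart, 7 fell instead of 4. For Pds5b the difference was 1.02 ± 0.22 and for Chd8 0.66 ± 0.17 (adjusted p = 0.004 and 0.012). Of the 10, the gap between the siRNAs was larger at day 0 in 9, with the Zfp143 siRNA cells starting lower.

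The largest rises among genes of at least 5 CPM were Ifi27l2a, Mybph, Myh3, Myh1, Oas2, Actc1, Myl1 and Oas3, all from the interferon and sarcomere lists described above. The largest falls came from genes outside the lists. Ostn, which encodes the muscle hormone osteocrin, was at 29.9, 29.9 and 24.4 CPM uninduced and had no count at day 5, at least 169-fold lower. H2-M10.1, an MHC class I-like gene, Try5, a trypsin, and Ppef1, a phosphatase, were likewise without counts at day 5 and at least 82.5-fold, 75.3-fold and 57.7-fold lower. Car6, a secreted carbonic anhydrase, fell from 137, 124 and 142 to 0.0664, 0.247 and 0.25 CPM (-9.36 ± 0.43) and Avil, advillin, an actin-binding protein, from 174, 185 and 187 to 0.399, 0.693 and 0.4 CPM (-8.47 ± 0.32). Adm2, a peptide of the calcitonin family, went from 11.7, 11.2 and 10.7 to 0, 0.099 and 0 CPM, with summed counts at day 5 and day 0 in a ratio of 0.00323 (95% interval 0.000391 to 0.0117). With the control siRNA Car6 and Avil changed by -9.39 and -8.54. Sprr2h, of the small proline-rich proteins, fell from 18.8, 13.3 and 16.7 to 0.0664, 0 and 0 CPM, whereas uninduced control libraries held only 0.924, 0.384 and 0.854 CPM.

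**Figure D3:**
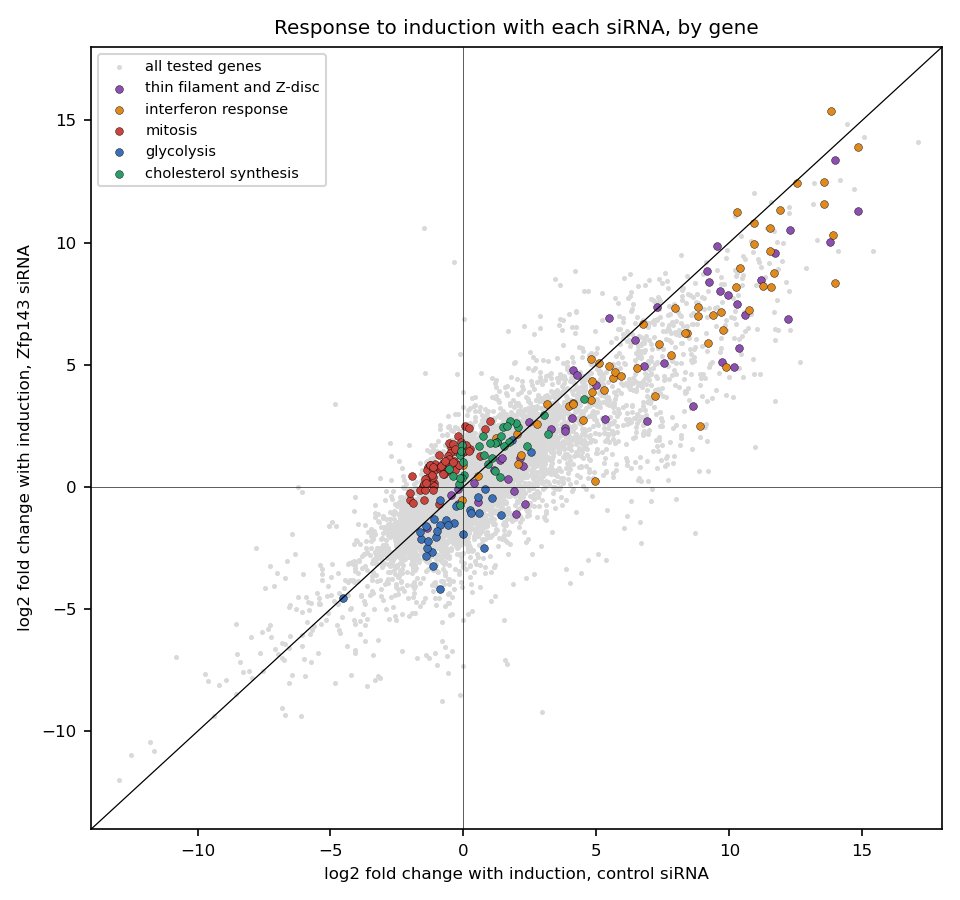
Log2 fold change with induction for each tested gene (grey points) with the control siRNA (horizontal axis) and the Zfp143 siRNA (vertical axis), with 5 lists in colour and the line of equal response. Mitosis genes lie above the line; most thin filament, interferon and glycolysis genes lie below it. Fitted values of genes with a group at 0 counts depend on the prior count.

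The 2 responses were compared gene by gene through their difference. Of the 9932 genes called with the Zfp143 siRNA, 7352 (74.0%) did not differ from the control siRNA response at an adjusted p under 0.05. Across all tested genes the response lay higher with the Zfp143 siRNA for 1595 (10.6%) and lower for 1780 (11.8%). Where genes rose in control cells, were called with both siRNAs and differed (1031), the Zfp143 siRNA response had the same sign but was smaller for 602, larger for 273 and opposite for 156. Where genes fell in control cells (705), it was smaller for 289, larger for 245 and opposite for 171. Among the 8 largest upward differences were Peg10, an imprinted gene of retrotransposon origin, which rose from 15.6, 18.2 and 18.3 to 66.4, 94.8 and 94.4 CPM (2.29 ± 0.16) and fell with the control siRNA (-0.39, difference 2.68 ± 0.22, adjusted p = 2e-06), and Ppp2r2b, a phosphatase subunit, at 4.85, 5.25 and 5.61 CPM after induction (difference 2.89 ± 0.29). Sapcd2 and Ccdc18 rose by 1.48 ± 0.30 and 1.43 ± 0.31 and fell with the control siRNA (-0.98 and -1.25). Sp8, a zinc finger factor, fell with both siRNAs but less with the Zfp143 siRNA, -0.99 against -4.11 (adjusted p of the difference = 2.3e-05). Among the largest downward ones, Ccl5, a chemokine, reached 9.9, 7.82 and 5.71 CPM against 49, 34.9 and 36.1 CPM in induced control cells (difference -6.41 ± 0.82, adjusted p = 2.3e-06). Before induction it was at 1.31, 1.42 and 1.41 CPM with the Zfp143 siRNA and 0.163, 0.0549 and 0 CPM with the control siRNA. Il1rl1, a cytokine receptor, went from 2.17, 1.12 and 1.53 to 3.39, 4.26 and 4.1 CPM (difference -6.65 ± 1.01). Its control libraries went from 0.109, 0 and 0 to 10.25, 10.9 and 12.2 CPM. The uninduced control libraries held 4 counts of Ccl5 and 2 of Il1rl1 in all, so the size of both differences rests on few counts. Mybpc2, fast myosin-binding protein C, stayed at 0.133, 0.396 and 0.55 CPM while induced control libraries reached 12.2, 17.4 and 12.4 CPM. Its rise with the Zfp143 siRNA was not called without uninduced replicate 1 or 2 or induced replicate 2 or 3 (adjusted p = 0.062 to 0.132).

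**Figure D4:**
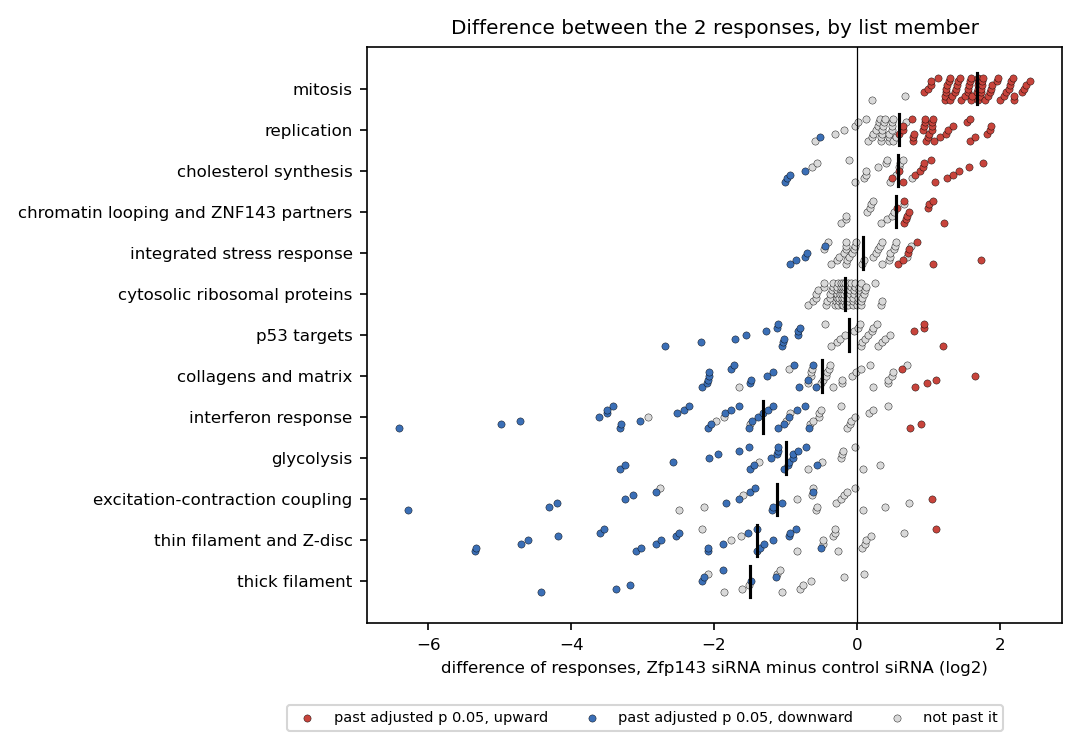
Difference between the 2 responses (Zfp143 siRNA minus control siRNA, log2) for each member of 13 lists that has counts in all 4 groups; bars mark the median of the points, and colour marks members past adjusted p 0.05. Mitosis lies to the right of 0 and cytosolic ribosomal proteins close to it, while the muscle lists and glycolysis lie mostly to the left.

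The gap between the siRNAs was also set out at each day. Of the 1595 genes with an upward difference, the gap between the siRNAs was larger at day 0 than at day 5 in 1199 (75.2%), and of the 1780 with a downward difference in 1391 (78.1%), against 66.1% of all tested genes. These gaps use the same libraries as the difference itself and are given as a description. The lists parted on this measure. A small constant was added to CPM before the logarithm, as for glycolysis above, which shrinks gaps between very low levels. Several thin filament genes were that low at day 0. Acta1 averaged 0.127 CPM with the control siRNA and 0.570 CPM with the Zfp143 siRNA. Such genes are moved towards a larger gap at day 5. How far this set the thin filament count below was not tested. In glycolysis the larger gap was at day 0 for 20 of the 21 members with a downward difference, and in the interferon list for 30 of 31. In thin filament and Z-disc genes it was at day 0 for 7 of 26, and the Zfp143 siRNA libraries lay below the control libraries at day 5 for 25 of those 26 (median gap -1.42). In mitosis it was at day 0 for none of 60, and in replication for 2 of 30.

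Markers of other kinds of cell were checked in the same libraries. Fibroblast and smooth muscle markers rose in 10 of 13 tested cases and fell in 2 (log2 changes of -6.1 and -2.15). Over all tested genes 36% rose and 30.1% fell. The summed level of these markers went from 174.1 to 202.3 TPM uninduced to 3572 to 4126 TPM induced. This sum includes Acta2, which early myotubes also make, at a mean of 1398 TPM induced. Ly6a, a stromal and progenitor surface protein, rose from 58.2, 40.8 and 49.7 to 551, 663 and 548 CPM (3.57 ± 0.24), and the platelet-derived growth factor receptors Pdgfrb and Pdgfra rose by 3.15 ± 0.17 and 2.14 ± 0.13. In induced control cells the summed level was 6148 to 6617 TPM, with Acta2 at a mean of 2159 TPM. These genes moved in the same direction as the matrix, interferon and muscle genes above, and their part in those results was not tested. Adipocyte markers rose in 3 of 5 tested cases, against 36% of all tested genes. Lpl, lipoprotein lipase, went from 225, 225 and 242 to 396, 464 and 521 CPM (1.00 ± 0.13), while Cfd, Cidea, Lep and Retn had no counts. Macrophage and leukocyte markers summed to 28.4 to 32.0 TPM uninduced and 32.16 to 35.64 TPM induced, and the defining markers Adgre1 and Tyrobp had no counts. Cd14 did not pass the test (29.4, 21.9 and 22.1 CPM before and 26.6, 21.9 and 21.8 CPM after), while Cd68 and Csf1r fell by 2.17 and 1.42. Endothelial markers summed to at most 5.48 TPM with Cldn5 and Tie1 at 0, and epithelial ones to at most 8.39 TPM with Epcam, Krt18, Krt5 and Cldn3 at 0. Neuronal and glial markers summed to 15.88 to 20.6 TPM over the 6 libraries, with Stmn2 at 11.8, 12.6 and 12 CPM before and 12.2, 13.2 and 11.3 CPM after induction. In the osteoblast and chondrocyte list, at 5544 to 6194 TPM uninduced and 3146 to 4174 TPM induced, Spp1 was the most abundant member, and Ibsp and Matn1 had no counts.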

How the data were processed

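Estimated counts per gene for 12 C2C12 libraries were deposited with TPM and gene lengths. Per the submitters' processing notes, reads were trimmed with fastp 1.0.1, aligned to GRCm39 with STAR 2.7.11b and quantified with Salmon, whose version, like the annotation release, is not given in the sources used here. Per the labels' protocols, libraries held poly(A) RNA without strand. The deposited TPM columns were treated as a score, because they were used as the authors scaled them and only to set levels of genes side by side per length. The deposited FPKM columns were not used.

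Of 78810 lines, 535 repeated a gene identifier and were dropped, leaving 78275, of which 477 have no symbol. Between 5.78% and 7.26% of the values of a library were not whole, and counts were rounded. Library totals (13520906 to 19068323) set the precision of low genes, and intervals and floors cover counting error only. Genes were kept by edgeR's filterByExpr with a minimum count of 10 and a minimum total of 15, which left 15030. The robust quasi-likelihood test of edgeR 4.0.16 (R 4.3.3, TMM scaling) was fitted to all 12 libraries in 4 groups, so that they share an estimate of the spread. The comparisons were induced against uninduced cells for each siRNA and the difference between these changes. P-values were adjusted by Benjamini-Hochberg over all tested genes, and a call is an adjusted p under 0.05. Fold changes of genes without counts in a group are given as bounds against 3 counts per library.

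The libraries and the gene lists were chosen with earlier results of these data known. Named genes are Zfp143, a panel of 18 marker genes, the 8 largest rises and falls at 5 CPM or more in libraries that do not overlap, for each list the 4 members of smallest p in its main direction, its most abundant member by TPM and up to 3 called the other way, and the 8 largest differences in each direction; not all are described. Alternatives covered scaling, the count filter, DESeq2 1.42.0, limma-voom (limma 3.58.1), a transcript length offset, the replicate number as a block and each library left out. Leaving out both libraries that stand apart was added after seeing the data. Gene start windows came from RefSeq on GRCm38.p6, another build than the counts, and were matched by symbol.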

Additional observations from a re-analysis of the deposited data

Results flagged for a closer look

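The results below are listed because the response to induction differed between the siRNAs, by edgeR's test of the difference itself. They are the counts over all tested genes, the panel genes with counts in all 4 groups whose difference passed, and the other named genes called in opposite directions with the 2 siRNAs. Values are log2 differences, Zfp143 siRNA minus control siRNA, each with an adjusted p under 0.05. Over all tested genes 1595 differences were upward and 1780 downward.

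Downward differences among cytokine, leukocyte-associated and stress genes were -4.53 for Cd53, -2.96 for Csf1r, -2.41 for Isg15, -3.14 for Hspa1b, -3.02 for Cryab and -0.85 for Atf4. Muscle genes gave -4.22 for Mymk and -3.59 for Acta1, both with few counts in the uninduced control libraries. Genes of low oxygen, repression and arrest gave -3.24 for Egln3, -2.97 for Bhlhe40 and -1.70 for Cdkn1a, and growth factor and surface genes -1.44 for Etv5 and -1.19 for Sdc4.

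Upward differences among cell cycle genes were 2.38 for Ccnb1, 1.98 for Ube2c, 1.88 for Timeless and 1.58 for Mki67. The targeted gene Zfp143 gave 1.22, the determination factor Myf5 1.26 and the stress factor Xbp1 1.55. Among the largest upward differences were 2.89 for Ppp2r2b, 2.68 for Peg10, 2.68 for Ccdc18 and 2.45 for Sapcd2.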

How the results depend on the processing

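The total counts of genes called higher and lower with induction in Zfp143 siRNA cells stayed within 1.5 times under the settings tried. Of the counts for single lists under these settings 1161 did so and 55 did not, and of the values for named genes 46 lost the call. There were 5406 higher and 4526 lower genes, 5285 and 4664 with DESeq2 size factors, 5310 and 4736 with DESeq2, 5433 and 4608 with limma-voom, 5817 and 5032 without both libraries that stand apart, and 4963 to 5266 and 4184 to 4440 when 1 library was left out. Counts of differences between the siRNAs moved more. They were 1595 upward and 1780 downward, and 2769 and 2986 without the libraries that stand apart (the cause was not tested), and 1094 to 2232 and 1382 to 2518 with 1 library left out. Of the counts of differences for single lists 1426 stayed within 1.5 times and 170 did not. For named genes 241 values of the difference lost the call. The rise of Zfp143 (0.586) ranged from 0.472 to 0.683 with 1 library left out, was not called without uninduced Zfp143 siRNA replicate 3 (0.506) or induced replicate 3 (0.472), and was 1.267 in TPM, where the median gene also rose.

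Same-numbered Zfp143 siRNA libraries deviated together little (correlations 0.091, 0.017 and -0.048), so the numbers were not taken as pairs. With a replicate block the counts were 5429 higher and 4650 lower, 1702 upward and 1862 downward differences, and Zfp143 rose by 0.569, with no change of these calls. The depth of the shallowest library limits genes near the floor of 3 counts.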
